A study of Mus musculus with 8 samples.

Results

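The genes described here are 38 cell cycle genes of the mouse, chosen by name from a list, out of 31053 genes in each expression matrix. Of them, 12 belong to S phase, when DNA is copied, and 26 to G2 and mitosis (G2/M), when the copies are condensed and separated; all 38 were found in each of the 4 expression libraries and every one had at least 50 UMIs over them. For shares of cells, 9 of the S members (Mcm2 to Mcm7, Pcna, Rrm2 and Pclaf) formed an S set and 3 of the G2/M members (Top2a, Ccnb2 and Cenpf) a G2/M set.

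A T cell that leaves rest passes through S phase, G2 and mitosis in turn, and the RNA of the proteins it needs comes in waves. The first wave depends on E2F transcription factors and supplies the MCM helicase that opens DNA, the sliding clamp PCNA and the enzymes that make nucleotides. The later wave depends on the MuvB complex with B-MYB and FOXM1, which acts through a promoter element called the cell cycle genes homology region (CHR), and supplies cyclin B, the kinase CDK1, the mitotic spindle and the kinetochores. Naive CD8 T cells rest for long times, whereas activated and memory cells divide in response to antigen and cytokines.

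CD8 T cells were taken from 2 organs, spleen and liver, in wild-type (WT) C57BL/6 animals and in animals homozygous for a transgene that makes T cells express the T-box factor Eomes (EomesTG, on the same background). The suspensions of 3 mice of a strain were pooled and then sorted, so that each genotype and tissue is 1 droplet library of 5′ RNA ends with 1 matched library of T cell receptors (TCR), and the spleen and the liver of a genotype come from the same 3 mice. No source used here gives the age of the animals or the promoter of the transgene, and its reads were not told apart from those of the endogenous gene. With 1 library in each of the 4 groups there is no replicate and no test; all 95% intervals are exact ones for counts (Poisson), ratios or shares (binomial) and cover counting error only. Every list of values below gives the spleens first, WT then EomesTG, and then the livers, WT then EomesTG.

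After filtering, 5309, 5715, 3106 and 4487 cells were analysed, with 28722475, 28267585, 18842125 and 20382288 unique molecular identifiers (UMIs, each a captured RNA molecule) and medians of 3923 to 5474 UMIs per cell; any 2 libraries shared 23 to 57 cell barcodes. Eomes was at 86.8, 134, 84.3 and 182 CPM (the UMIs of a gene per 1e+06 UMIs of the library), higher in EomesTG than in WT cells of both organs, as the labels have it. The 8 markers of CD8 T cells summed to 5217 to 7963 CPM, and 6 markers of CD4 T cells and thymocytes to 0.883 to 2.58 CPM. The 4 genes of MHC class II, which mark antigen-presenting cells, summed to 5.19, 48.2, 72.7 and 39.2 CPM, and 7 erythroid markers to 8.08, 8.17, 23.1 and 160.5 CPM.

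The S and the G2/M genes differ in the letters of their promoters, and a few windows are shown as background to the 2 waves; the results below do not follow the motifs gene by gene. RefSeq promoters on GRCm38.p6, from 250 bases before to 50 bases after the transcription start, were found for 11 of the 12 S and 21 of the 26 G2/M members. A CHR, searched as TTTGAA or TTCGAA on both strands, was in 17 of 21 G2/M and 2 of 11 S members, against 21.7% of 27025 genes with a window of the same 300 bases. An E2F motif, searched as TTTCCCGC, TTTCGCGC, TTTGCCGC or TTTGGCGC on both strands, was in 5 of 11 S and 1 of 21 G2/M members, against 2.61% of all genes. The CCAAT box, searched as CCAAT on both strands, was in 19 of 21 G2/M and 9 of 11 S members and in 41.1% of all genes. Both a CHR and a CCAAT box were in 17 of 21 G2/M and 2 of 11 S members and in 9.65% of all genes. The windows of the 3 genes of the G2/M set and of 2 S members that part in the results below are given from 5′ to 3′ on the strand of the gene, with every CHR, E2F motif and CCAAT box in capitals on either strand, and neighbouring E2F words run together where they overlap. Kif23, which stands apart below, holds a CHR and a CCAAT box, whereas Birc5 and Nusap1 hold none of the 3 motifs in their windows. A match is a description of the letters and not of binding.
Ccnb2: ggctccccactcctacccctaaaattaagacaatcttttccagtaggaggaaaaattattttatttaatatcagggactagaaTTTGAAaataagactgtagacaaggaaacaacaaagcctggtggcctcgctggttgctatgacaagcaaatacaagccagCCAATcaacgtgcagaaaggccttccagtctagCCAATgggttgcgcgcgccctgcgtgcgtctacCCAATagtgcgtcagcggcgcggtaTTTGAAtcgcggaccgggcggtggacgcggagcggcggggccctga
Cenpf: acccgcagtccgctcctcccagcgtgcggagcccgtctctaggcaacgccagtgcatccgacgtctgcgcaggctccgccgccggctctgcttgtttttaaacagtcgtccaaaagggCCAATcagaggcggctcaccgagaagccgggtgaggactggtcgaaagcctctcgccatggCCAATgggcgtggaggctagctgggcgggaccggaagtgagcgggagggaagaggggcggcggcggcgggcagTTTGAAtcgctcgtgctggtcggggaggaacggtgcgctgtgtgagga
Top2a: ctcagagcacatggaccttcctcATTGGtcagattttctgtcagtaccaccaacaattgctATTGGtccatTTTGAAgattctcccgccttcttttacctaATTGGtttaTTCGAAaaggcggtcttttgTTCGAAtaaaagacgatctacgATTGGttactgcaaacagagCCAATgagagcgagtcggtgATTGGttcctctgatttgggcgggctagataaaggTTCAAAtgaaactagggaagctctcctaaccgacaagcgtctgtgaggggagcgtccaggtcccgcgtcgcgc
Mcm6: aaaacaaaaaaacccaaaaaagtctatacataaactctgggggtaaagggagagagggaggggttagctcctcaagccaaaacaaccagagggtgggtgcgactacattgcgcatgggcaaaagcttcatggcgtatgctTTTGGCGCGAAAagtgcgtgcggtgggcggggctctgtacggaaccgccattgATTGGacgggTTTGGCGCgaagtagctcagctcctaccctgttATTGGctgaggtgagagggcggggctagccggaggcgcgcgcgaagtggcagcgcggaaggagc
Pclaf: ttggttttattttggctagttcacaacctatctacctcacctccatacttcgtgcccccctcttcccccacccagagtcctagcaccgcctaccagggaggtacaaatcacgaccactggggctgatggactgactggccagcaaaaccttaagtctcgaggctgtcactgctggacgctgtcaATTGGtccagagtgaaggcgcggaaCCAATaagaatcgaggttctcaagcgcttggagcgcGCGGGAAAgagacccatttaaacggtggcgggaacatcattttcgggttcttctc

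Gene positions are from GENCODE M21 on GRCm38. Ccnb2 (ENSMUSG00000032218) lies on chromosome 9, 70407692 to 70421547, reverse strand, and its window is chr9:70421505-70421804. Cenpf (ENSMUSG00000026605) lies on chromosome 1, 189640606 to 189688086, reverse strand, and its window is chr1:189688037-189688336. Top2a (ENSMUSG00000020914) lies on chromosome 11, 98992943 to 99024189, reverse strand, and its window is chr11:99024140-99024439. Mcm6 (ENSMUSG00000026355) lies on chromosome 1, 128331590 to 128359664, reverse strand, and its window is chr1:128359656-128359955. Pclaf (ENSMUSG00000040204) lies on chromosome 9, 65890237 to 65903266, forward strand, and its window is chr9:65890073-65890372. In Ccnb2 and Cenpf a CHR begins 4 and 2 bases after the start, and the window of Top2a holds 4 CHRs and 6 CCAAT boxes. Mcm6 has 3 E2F motifs and Pclaf 1, and neither has a CHR.

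Every S member had more RNA in liver than in spleen of the same genotype. The helicase genes varied less between libraries than those of nucleotide supply. Mcm2 was at 29.7, 24.1, 44.8 and 43.3 CPM, Mcm3 at 43.1, 33.8, 65.5 and 60.3 CPM and Mcm4 at 43.3, 38.1, 59 and 68.1 CPM. These 3 genes encode subunits of the MCM2-7 ring. Mcm5 was at 28.9, 18.3, 50.2 and 45 CPM and Mcm7 at 43.8, 37.2, 64.6 and 53.6 CPM. Mcm6, a further subunit of the ring, was at 69.2, 52.4, 104 and 137 CPM and was higher in EomesTG than in WT liver, while in spleen the order was the reverse. Pcna, the sliding clamp of DNA polymerase, was at 48.6, 43.8, 79.1 and 74.9 CPM. In spleen its intervals were close, 46.1 to 51.3 in WT and 41.4 to 46.3 CPM in EomesTG cells. Pclaf, a small protein bound to PCNA at replication forks, had a wider range, 46, 15.7, 132 and 92.6 CPM, with EomesTG spleen far below the other libraries. Rrm1, the large subunit of ribonucleotide reductase, was at 19.5, 15.4, 41.4 and 43.7 CPM and Rrm2, its small subunit, at 24.6, 11.1, 60.7 and 48.0 CPM. Tyms, thymidylate synthase, was at 18.1, 9.76, 39.5 and 40.5 CPM, and Tk1, thymidine kinase of the salvage pathway, at 11.9, 5.16, 33.2 and 37.2 CPM. For these 4 genes of nucleotide supply EomesTG spleen was lowest and both livers were highest, with no common order of the livers.

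The G2/M members also had more RNA in both livers than in either spleen, with Kif23 as the exception, and all 26 were lowest in EomesTG spleen. Among the cyclins and their kinase, Ccna2 (cyclin A2) was at 14.3, 6.05, 45.3 and 45.2 CPM, Ccnb1 (cyclin B1) at 5.40, 3.08, 17 and 13.0 CPM and Ccnb2 (cyclin B2) at 18.2, 7.85, 54.2 and 41.6 CPM. Their kinase gene Cdk1 was at 9.37, 4.28, 31.8 and 34.5 CPM, higher in WT than in EomesTG spleen and with overlapping intervals in the livers. Genes of chromosome structure came next. Mki67, whose product coats mitotic chromosomes, was at 26.7, 10.8, 84.7 and 78.6 CPM. Top2a, the topoisomerase that untangles sister DNA, was at 36.6, 14.8, 94.9 and 79.7 CPM. Cenpa, the histone variant of centromeres, was at 42.2, 24.7, 94.6 and 105 CPM. For the kinetochore and the checkpoint that watches it, Cenpf was at 13.5, 6.65, 38.4 and 35.3 CPM and Cenpe, a kinetochore motor, at 7.07, 3.29, 22.4 and 20.8 CPM. The checkpoint kinase gene Bub1 was at 1.98, 1.06, 6.42 and 7.16 CPM, and its relative Bub1b was at 3.79, 1.84, 10.5 and 11.4 CPM. The chromosomal passenger complex, which corrects attachments of chromosomes to the spindle, is represented by Aurkb, its kinase, at 7.21, 3.54, 20.6 and 19.8 CPM, Birc5 (survivin) at 29.2, 15, 92.8 and 78.9 CPM and Cdca8 (borealin) at 14.6, 7.43, 42.9 and 41.2 CPM.

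Spindle genes had the same order of spleens and livers. Stmn1, which takes microtubules apart, was at 99.5, 55.5, 235 and 187 CPM. Nusap1, a spindle protein that bundles microtubules, was at 10, 4.56, 33.2 and 32.4 CPM, and Tpx2, a spindle assembly factor that activates Aurora A, at 9.96, 4.39, 31 and 31.8 CPM. Hmmr, a spindle protein and hyaluronan receptor, was at 4.63, 2.51, 17.6 and 18.1 CPM. The motor gene Kif11, which pushes spindle poles apart, was at 7.07, 3.04, 25 and 23.3 CPM. Of the mitotic kinases, Aurka (Aurora A) was at 3.62, 2.02, 9.50 and 10.2 CPM and Plk1 at 6.51, 3.47, 17.6 and 17.6 CPM. Genes of mitotic exit are Ube2c and Cdc20, partners of the anaphase-promoting complex, at 34.3, 15, 113 and 111 CPM and 10.9, 6.79, 25.8 and 25.1 CPM. The cytokinesis genes Prc1 and Kif20a, a microtubule crosslinker and a motor of the central spindle, were at 7.28, 3.47, 23.2 and 24.1 CPM and 3.97, 2.26, 9.45 and 8.59 CPM. Kif23, the motor of centralspindlin, did not follow the others: it was at 18.4, 17.3, 24.7 and 17.9 CPM, and neither the 2 spleens nor the 2 organs of EomesTG mice differed beyond counting error. The plot of levels by library sets all 38 genes side by side.

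**Figure D1:**
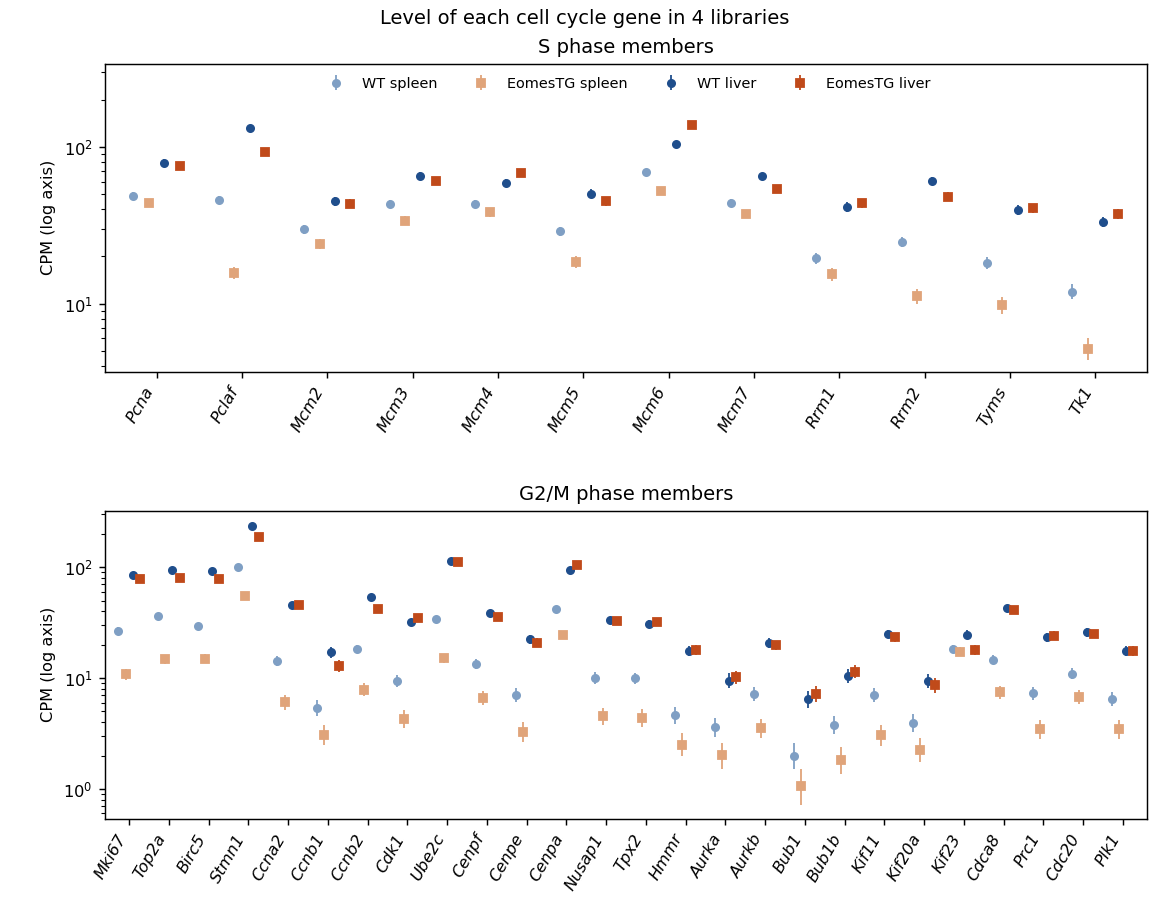
Level of each member in CPM on a log axis, S members above and G2/M members below, with 1 point per library (circles WT, squares EomesTG, pale spleen, dark liver) and 95% Poisson intervals of the counts. EomesTG spleen is the lowest point of nearly every gene, and Kif23 is the G2/M member whose 4 points lie closest together.

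The cells that carry this RNA were looked at next, since a high level in a library can come from a few dividing cells or from many resting ones. Cells were thinned at random to 2000 UMIs each, leaving out shallower ones, which left 5075, 5352, 2926 and 3922 cells. A cell was called cycling when it then held at least 5 UMIs of the 38 members, a range on a scale and not a cell type. Cycling cells numbered 147, 67, 255 and 304, or 2.90%, 1.25%, 8.71% and 7.75%, and 23, 15, 36 and 68 of them held 5 or 6 UMIs, close to the limit. For each member the limit was applied to the other 37, so that a gene's own UMIs did not place a cell.

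The S members split in 2 by this measure. Pclaf had 89.4%, 92.1%, 96.7% and 97.7% of its UMIs in cycling cells, Rrm2 85.3%, 71.2%, 92.9% and 81.0% and Tk1 75.5%, 75.8%, 84.6% and 79.1%. For Mcm2 to Mcm7, Pcna and Rrm1 the share was 4.22% to 52.9% and lowest in EomesTG spleen. Tyms lay between, with 37.6%, 22.1%, 70.5% and 47.6%. Outside cycling cells Mcm6 still had 47.9, 43.4, 66.4 and 100 CPM and Pcna 37.6, 40.8, 48.7 and 56.4 CPM, whereas Pclaf had 2.23, 0.568, 2.24 and 1.11 CPM. Inside them Mcm6 had 257, 246, 258 and 375 CPM and Pclaf 634, 522, 696 and 553 CPM. The ratio of Mcm6 to Pclaf was thus far lower in cycling than in other cells of each library. Of the G2/M members most UMIs lay in cycling cells, with medians of 84.2%, 71.4%, 90.7% and 85.3% over the 26 genes. Hmmr had 96.6%, 84.6%, 100% and 98.5% and Ccna2 92.1%, 84.6%, 96.9% and 100%. Cenpa (34.5%, 24.9%, 59.4% and 36.4%) and Kif23 (14.1%, 7.87%, 46.3% and 52.6%) were among the 3 lowest in each library. Stmn1 had 54.2%, 46.0%, 81.7% and 87.9%, with EomesTG liver above the median. Prc1 (66.7%, 40.9%, 84.6% and 53.9%) and Aurka (75%, 16.7%, 74.1% and 53.8%) were low in the EomesTG libraries, and outside cycling cells Cenpa had 21.6, 16.3, 30.3 and 52.5 CPM. In EomesTG spleen some shares rest on few UMIs, as for Aurka, with 2 of 12 thinned UMIs in cycling cells. Mki67 and Top2a were also found outside cycling cells in EomesTG liver, at 15.6 and 16.2 CPM, against 5.99 and 10.3 CPM in WT liver, while Birc5 was at 0.691 against 1.68 CPM.

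**Figure D2:**
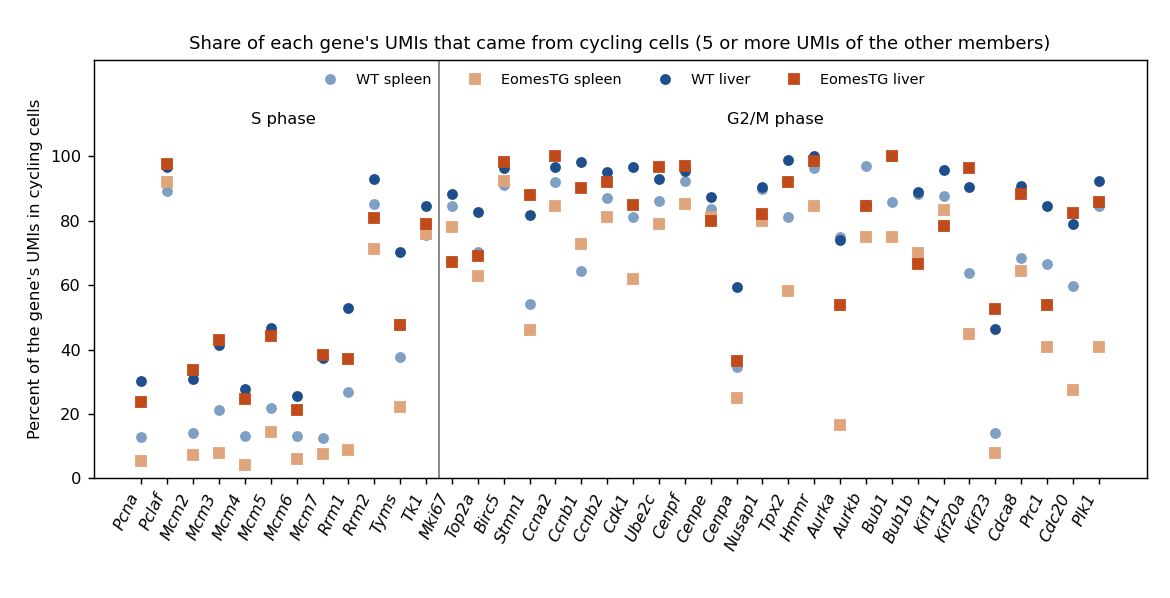
Percent of the UMIs of each member (thinned cells) that lay in cycling cells, defined by at least 5 UMIs of the other 37 members, with 1 point per library. Pclaf, Rrm2 and Tk1 sit high among the S members, the Mcm genes, Pcna and Rrm1 sit low, and most G2/M members sit high, with Cenpa and Kif23 below them.

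The S set was detected in many cells of every library, in cells with markers of naive T cells as well. At least 1 UMI of the S set was in 35.5% (34.2 to 36.8), 34.8% (33.6 to 36.1), 40.9% (39.1 to 42.7) and 46.2% (44.7 to 47.8) of thinned cells. At least 1 UMI of the G2/M set was in 3.29% (2.82 to 3.82), 1.46% (1.15 to 1.82), 8.03% (7.07 to 9.08) and 7.65% (6.84 to 8.53). The S set holds 9 genes and the G2/M set 3, so these shares are not to be compared with each other in size. Before thinning the S set was in 62.3%, 59.3%, 67.2% and 64.1% of cells and the G2/M set in 5.71%, 2.98%, 12.8% and 10.7%; the order of the 2 livers for the S set was then the reverse of the thinned one. Cells with a UMI of at least 2 of the 3 naive genes Ccr7, Lef1 and Igfbp4 and 0 UMIs of 8 effector genes served as a population that should be at rest; there were 271, 343, 116 and 65 of them, with medians of 4841, 4716, 5755 and 5975 UMIs before thinning against 5113, 4888, 5638 and 4198 in all cells. In these naive marker cells the S set was found in 43.5% (37.6 to 49.7), 30.0% (25.2 to 35.2), 42.2% (33.1 to 51.8) and 46.2% (33.7 to 59.0) and the G2/M set in 4.43% (2.31 to 7.61), 0.583% (0.0707 to 2.09), 3.45% (0.947 to 8.59) and 0 of 65 cells, which allows a share of up to 4.62% by 3 counts and 5.52% by the exact interval. The S share of the whole library lay below that of naive marker cells in WT spleen and had overlapping intervals with it in the other 3 libraries, so it did not exceed that of naive marker cells beyond counting error and is not read as a share of cells in S phase. The G2/M share of the library lay above that of naive marker cells in EomesTG liver, had overlapping intervals with it in EomesTG spleen and WT liver, and was not above it in WT spleen. Of the naive marker cells themselves 8, 3, 3 and 0 were cycling, so that only those of EomesTG liver held none. The shares were 2.95% in WT spleen, 0.875% in EomesTG spleen and 2.59% in WT liver, against 2.90%, 1.25% and 8.71% of all cells there. In WT spleen they were thus not at rest more often than all cells. Among cells with a UMI of the G2/M set, 70.7%, 53.8%, 76.2% and 70.7% also had one of the S set, against 34.3%, 34.6%, 37.8% and 44.2% of the cells without. Free RNA in the droplets also gives UMIs, and its part in the resting level was not tested.

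Within cycling cells the balance of S and G2/M RNA was close in the 4 libraries. S members made up 32.4%, 32.5%, 30.7% and 35.1% of the member UMIs of thinned cycling cells. With all their UMIs the shares were 35.3%, 32.1%, 32.6% and 31.4%, so that the order of the 2 livers turned, and no order of libraries is drawn from them. Over all cells of a library, in contrast, the S share was 48.9%, 56.9%, 38.8% and 39.9%, highest in EomesTG spleen, where cycling cells were fewest. Single cycling cells ran from nearly pure G2/M to nearly pure S content. The share of S members in a cell had medians of 47.4%, 38.5%, 36.4% and 45.6%, and 30.6%, 23.9%, 29.8% and 25.3% of the cells had under 20% S UMIs while 46.9%, 35.8%, 35.3% and 46.1% had over 50%. UMIs of both sets were in 58.5%, 52.2%, 61.2% and 54.6% of them. The resting level of the Mcm genes enters these shares.

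Cycling cells were deep cells, with medians of 12007, 11285, 12054 and 9432 UMIs before thinning against 5081, 4870, 5472 and 4068 in the others. A TCR beta chain was found in 93.9%, 97.0%, 89.8% and 90.8% of cycling and 94.4%, 93.1%, 92.7% and 90.9% of other cells, and 2 beta chains, as doublets can give, in 6.80%, 2.99%, 8.63% and 3.62% against 6.45%, 6.55%, 6.78% and 4.34%. The 6 markers of CD4 T cells and thymocytes had 0, 0, 2 and 0 UMIs in cycling cells. MHC class II genes stood at 91.8 CPM in cycling and 3.15 CPM in other cells of WT spleen (all 4 genes detected), and at 29.9 against 54.8, 35.3 against 55 and 42.8 against 23.6 CPM in the other 3; their part in the results of cycling cells was not tested.

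Cycling cells had less RNA of naive genes than the other cells of their library. A gene was called at 1.5-fold or more with its whole interval beyond equality; genes with at least 50 UMIs over both sides were considered. Of 8 naive genes 4, 2, 8 and 7 were lower and 0 higher (in EomesTG liver with Dapl1 at 0 UMIs in cycling cells and counted at a limit of 3 counts), where 3.65%, 2.04%, 6.03% and 6.92% of all genes were lower and 12.3%, 10.1%, 15.9% and 14.3% higher. Lef1, a transcription factor of naive T cells, was at 190.5 against 393 CPM in WT spleen, 246 against 417 CPM in EomesTG spleen, 145 against 268 CPM in WT liver and 16.4 against 95.1 CPM in EomesTG liver. Satb1, a chromatin organizer, was likewise lower in cycling cells of all 4 libraries. Of the cytotoxic genes tested in spleen, 5 of 12 (WT) and 6 of 8 (EomesTG) were higher and 0 lower. Gzma, a granzyme, was at 565 against 61.8 CPM in WT spleen and 358 against 18.5 CPM in EomesTG spleen, and Gzmk at 180.3 against 19.2 CPM and 313 against 23.5 CPM. In liver 4 of 12 (WT) and 3 of 11 (EomesTG) were higher, and 2 and 1 lower. Gzmk was at 288 against 84.6 CPM in WT and 814 against 541 CPM in EomesTG liver, and Klrg1, a receptor of terminal effector cells, at 78.4 against 28.8 CPM and 32.9 against 6.50 CPM. Ccl5, a chemokine of effector and memory cells, was lower in cycling cells of liver, at 7296 against 12758 CPM in WT and 18084 against 33280 CPM in EomesTG. Of inhibitory receptor and exhaustion genes, 3 of 7, 4 of 7, 1 of 9 and 2 of 10 were higher and 0 lower. The counts of the livers were near the 15.9% and 14.3% of all genes and do not set the list apart. The median log2 ratios of the list were 0.017 in WT and −0.073 in EomesTG liver. Pdcd1, the gene of PD-1, was at 40.8 against 5.68 CPM and 134 against 10.5 CPM in the spleens, 33.3 against 21.5 CPM in WT liver and 538 against 511 CPM in EomesTG liver, where the log2 ratio was 0.075 (−0.093 to 0.24). In EomesTG liver the 2 higher genes were Ctla4, at 220.4 against 126 CPM, and Havcr2, at 60.9 against 25.6 CPM, both inhibitory receptors.

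Between genotypes in spleen, the G2/M members were lower in EomesTG cells almost without exception and the S members less evenly. Of 26 G2/M members 25 were called lower, and of 12 S members 5, with 0 higher in both groups, against 4.95% lower and 2.71% higher of 10771 genes tested. The median log2 ratio of EomesTG to WT was −1.02 over the G2/M and −0.38 over the S members, and −0.0062 over all genes. The 5 S members were Pclaf −1.55 (−1.71 to −1.40), Tk1 −1.21 (−1.50 to −0.93), Rrm2 −1.15 (−1.35 to −0.96), Tyms −0.89 (−1.10 to −0.67) and Mcm5 −0.66 (−0.82 to −0.50). The remaining helicase genes, Pcna and Rrm1 lay between −0.40 (Mcm6) and −0.15 (Pcna). Among G2/M members Top2a had −1.31 (−1.48 to −1.15) and Ccnb2 −1.22 (−1.45 to −0.99), and the called ratio nearest to 0 was that of Cdc20, −0.69 (−0.95 to −0.42). Kif23, at −0.093 (−0.27 to 0.087), was the member not called. The shares of cells moved with these levels. Cycling cells made up 2.90% (2.45 to 3.40) in WT and 1.25% (0.971 to 1.59) in EomesTG spleen, whereas the S set was in 35.5% and 34.8%. Inside cycling cells, which were chosen for UMIs of these genes, single members went either way: Top2a was at 497 CPM in WT and 403 CPM in EomesTG and Nusap1 at 149.7 CPM in WT and 89.6 CPM in EomesTG, whereas Tk1 was at 127 CPM in WT and 189 CPM in EomesTG and Ccnb1 at 61.2 CPM in WT and 119 CPM in EomesTG, the last from 18 and 16 UMIs. At 2-fold or more, 14 of the 26 G2/M and 3 of the 12 S members were lower. The share of all genes at this limit was not computed, so these 2 counts have no background.

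In liver no member differed by 1.5-fold between the genotypes over all cells, while 15 of the 26 G2/M members were lower in EomesTG cells when each clone counted once. Over all cells, 0 of 38 members were called in either direction, against 6.72% lower and 13.5% higher of 10796 genes. The medians were −0.065 over S and −0.049 over G2/M members, and 0.12 over all genes. The ratios nearest to the limit were Pclaf −0.51 (−0.59 to −0.42) and Kif23 −0.47 (−0.67 to −0.27) on the lower side and Mcm6 0.40 (0.32 to 0.48) on the higher one. With each clone counted once, cells without a clone call were left out and no interval was computed. The counts so made rest on the ratio alone. In EomesTG liver 15 of 26 G2/M members and 2 of 12 S members were then at least 1.5-fold lower and 0 higher. Of all genes 4.95% were lower by the same rule. The medians were −0.68 and −0.14, and 0.0081 over all genes. Without the largest clone of each library, an alternative chosen after the data were seen, 0 members were called and the G2/M median was −0.021. Cycling cells were 8.71% (7.72 to 9.80) of WT and 7.75% (6.93 to 8.63) of EomesTG liver cells.

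Between organs of the same genotype, liver held more RNA of nearly all members, with higher ratios in EomesTG than in WT mice. In WT, 25 of 26 G2/M and 10 of 12 S members were higher in liver and 0 lower, against 11.4% higher and 3.29% lower of 10745 genes, with medians of 1.61 and 0.75 against 0.055 over all genes. In EomesTG, 25 of 26 and 11 of 12 were higher and 0 lower, against 23.6% higher and 9.7% lower of 10939 genes, with medians of 2.48 and 1.34 against 0.19. Cdk1 had 1.76 (1.55 to 1.98) in WT and 3.01 (2.73 to 3.30) in EomesTG mice, and Ccna2 1.66 (1.49 to 1.84) and 2.90 (2.67 to 3.15). Of S members Tk1 had 1.47 (1.28 to 1.67) and 2.85 (2.59 to 3.11), Pclaf 1.52 (1.42 to 1.61) and 2.56 (2.41 to 2.72), and Mcm7 0.56 (0.45 to 0.68) and 0.53 (0.40 to 0.65). Kif23 was the exception again, with 0.42 (0.24 to 0.60) in WT and 0.049 (−0.15 to 0.25) in EomesTG mice. With each clone counted once, and by the ratio alone, the counts were 25 and 4 in WT and 25 and 7 in EomesTG mice. By the same rule 10.7% and 15.6% of all genes were higher. The G2/M medians were then 1.16 and 1.69. These comparisons share libraries with those of the genotypes and are not independent of them, and organ and the preparation of its suspension cannot be told apart.

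**Figure D3:**
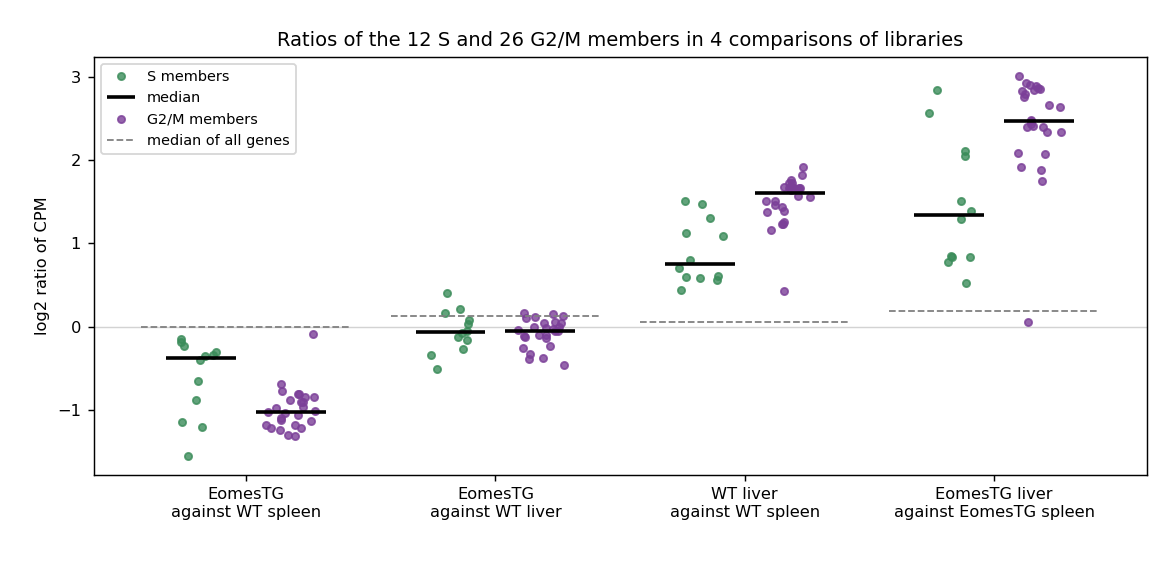
log2 ratio of CPM for the 12 S members (green) and the 26 G2/M members (purple) in 4 comparisons of 2 libraries each, with black bars at the medians of the members and dashed lines at the median of all genes tested. In spleen and between organs most G2/M members lie farther from 0 than most S members, and in EomesTG against WT liver both lie around 0. The purple point closest to 0 in each of the other comparisons is Kif23, at 0.42 between WT organs.

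Other S, G2/M and histone genes were called lower in EomesTG spleen and higher in liver more often than all genes, like the members. Between the livers 0 other G2/M genes were called, while other S and histone genes were called on both sides. In EomesTG against WT spleen, 14 of 30 other S genes and 24 of 37 other G2/M genes were lower and 0 higher, against 4.95% lower and 2.71% higher of all genes. Clspn, a checkpoint adaptor at replication forks, was at 3.15 against 7.62 CPM and Uhrf1, which carries DNA methylation through replication, at 5.52 against 12 CPM. Knl1, a kinetochore scaffold, was at 3.40 against 7.90 CPM and Sgo1, which guards the cohesion of centromeres, at 0.884 against 3.83 CPM. Of 19 replicative histone genes tested, whose RNA is made in S phase and mostly lacks a poly(A) tail, 13 were lower and 1 higher, with Hist1h1b at 4.39 against 20.9 CPM. Their copies are near-identical in sequence, so reads could be assigned to the wrong one. In EomesTG against WT liver, 4 of 30 other S genes were lower and 1 higher, 0 of 38 other G2/M genes were called, and 4 of 22 histone genes were lower and 1 higher, against 6.72% lower and 13.5% higher of all genes. Ung, which removes uracil from DNA, was at 13.5 against 25.4 CPM, and Rpa2, a subunit of the protein that coats unwound DNA, at 136 against 72.8 CPM. Between organs, 20 of 30 other S, 34 of 38 other G2/M and 18 of 21 histone genes were higher in WT liver, and 23 of 30, 36 of 38 and 20 of 21 in EomesTG liver, with 0 lower, against 11.4% and 23.6% of all genes higher. Nuf2, a kinetochore subunit, was at 9.02 against 2.02 CPM in WT liver and spleen, and Ttk, a checkpoint kinase, at 5.54 against 0.495 CPM in EomesTG liver and spleen.

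Among regulators of the cycle, single inhibitors and single drivers were both higher in EomesTG than in WT liver. Of 20 inhibitors 5 were higher and 2 lower than in WT liver, against 13.5% and 6.72% of all genes, so that these counts do not set the list apart. Cdkn2a, which encodes inhibitors acting through the RB and p53 pathways, was at 24.8 against 2.12 CPM, Cdkn2b, an inhibitor of CDK4 and CDK6, at 4.12 against 0.318 CPM, and Cdkn2c, of the same family, at 54.8 against 17.5 CPM. Rbl2, a pocket protein of resting cells, was at 106 against 43.7 CPM. In cycling cells of EomesTG liver Cdkn2a was at 70.7 against 15.5 CPM and Cdkn2c at 123 against 45.3 CPM relative to the other cells. Of 20 drivers 4 were higher and 2 lower, likewise near those shares. The kinase gene Cdk6, which drives cells from rest towards S phase, was at 107 against 23.6 CPM and Ccnd2, its cyclin partner, at 267 against 172 CPM. Lin54, a subunit of MuvB, was at 19.5 against 10.3 CPM. Spdya, an activator of CDK2, had 312 UMIs in EomesTG spleen and 206 in EomesTG liver but 0 in both WT libraries, and the exact intervals of its log2 ratios begin at 6.42 and 5.68. It is 1 of the drivers counted as higher, and whether its reads come from the gene or from sequence carried with the transgene was not tested. It did not follow the members: in EomesTG liver it was at 13.2 against 9.12 CPM in cycling and other cells. In EomesTG against WT spleen, 5 of 19 drivers were lower and 1 higher, the higher one being Spdya, against 4.95% and 2.71% of all genes; the lower ones include Mybl2 (B-MYB) at 1.13 against 3.34 CPM and E2f8, a late repressor of the E2F wave, at 0.743 against 2.89 CPM, and of 17 inhibitors 1 was lower, Cdkn2c at 4.88 against 8.77 CPM. Liver was above spleen for 8 of 19 drivers and 9 of 19 inhibitors in WT mice and for 9 of 20 and 13 of 20 in EomesTG mice, where 2 inhibitors were lower; of all genes 11.4% were higher in WT liver, and 23.6% higher and 9.7% lower in EomesTG liver. Cdkn1a, which halts cells in response to damage and stress, was at 8.07 against 0.279 CPM in WT liver and spleen and at 19.7 against 0.318 CPM in EomesTG liver and spleen.

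Clone size was set against the cycle by counting cells of the same library with identical alpha and beta CDR3 nucleotides. In each library with cells in both bins, clones of 2 to 9 cells held a larger share of cycling cells than clones of 1 cell, although the intervals overlapped in WT spleen and EomesTG liver. In WT spleen the shares were 3.0% (2.48 to 3.60) of 3763 cells and 7.69% (3.15 to 15.2) of 91 cells. In EomesTG spleen they were 1.38% (1.04 to 1.79) of 3920 and 7.69% (3.15 to 15.2) of 91 cells. In WT liver they were 7.10% (5.99 to 8.35) of 1901 and 15.7% (11 to 21.4) of 204 cells. WT liver did not rise evenly: clones of 10 to 99 cells had 5.88% (2.19 to 12.4) cycling cells of 102, and the 1 clone of over 100 cells 41.1% (31.9 to 50.8) of 112. EomesTG liver, where most cells with a clone call were in clones of 10 or more cells, went from 5.13% (3.77 to 6.81) of 877 cells over 6.73% (4.26 to 10.0) of 327 and 9.50% (7.5 to 11.8) of 747 to 11.4% (9.65 to 13.5) of 1127 cells, the last in 4 clones. Without the largest clone the last share was 8.97%, below that of clones of 10 to 99 cells. Cells of 1 clone share their ancestor and are not independent of each other. The G2/M set followed the cycling cells. In EomesTG liver it was in 4.33%, 6.73%, 8.43% and 11.7% of cells by rising clone size, and in WT liver in 6.10%, 17.2%, 6.86% and 38.4%. The S set differed less in proportion, with 38.4%, 47.1%, 50.3% and 51.4% in EomesTG liver and 38.9%, 48.0%, 47.1% and 58.9% in WT liver.

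**Figure D4:**
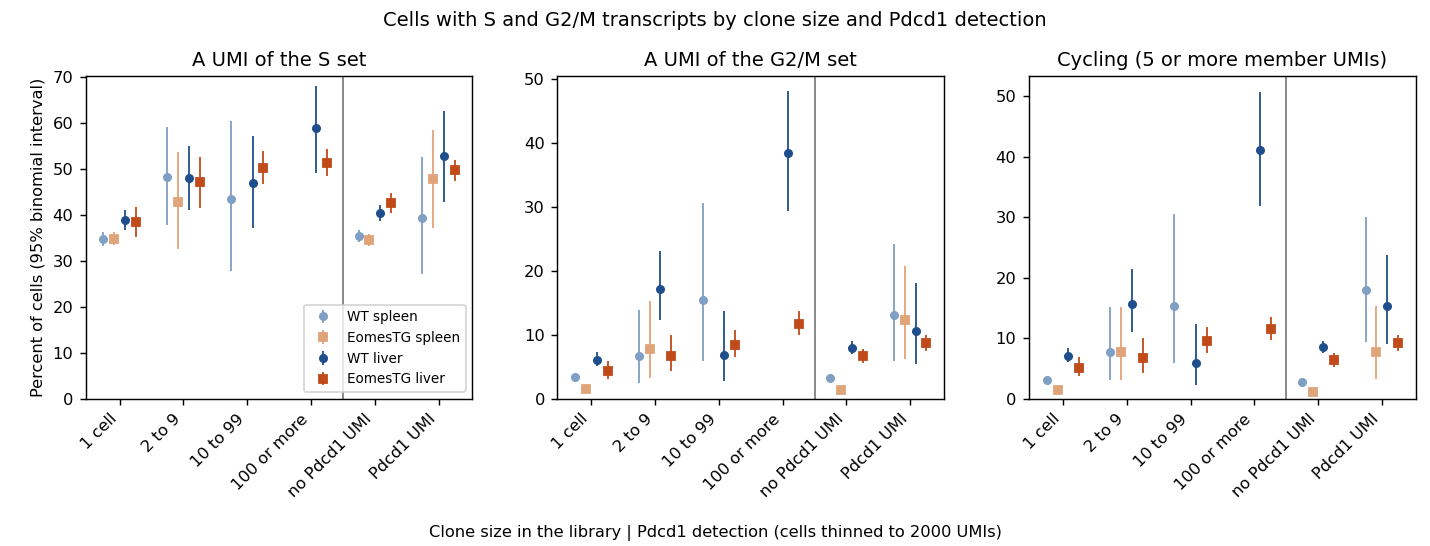
Percent of thinned cells with a UMI of the S set (left), with a UMI of the G2/M set (middle) and called cycling (right), by clone size and by detection of Pdcd1, with 1 point per library and 95% binomial intervals of the cell counts. The G2/M and cycling panels rise from clones of 1 cell to clones of 2 to 9 cells, the WT liver point at 100 or more cells is a single clone at 41.1% cycling, and the S set panel stays above 34% in every group.

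Large clones differed widely in how many of their cells were cycling. In EomesTG liver 19 clones had at least 20 cells, and their cycling shares ran from 0% to 37.7% with a median of 5.88%. Of the 19, 6 had none, but these held only 13 to 33 thinned cells each. Their intervals reached up to 10.6% to 24.7%, above the 7.75% of the whole library. The 2 largest of the 19 had 15.1% (11.9 to 18.7) of 458 and 8.15% (5.68 to 11.3) of 405 thinned cells. A clone of 53 thinned cells had 37.7% (24.8 to 52.1). The largest clone of WT liver had 46 cycling cells of 112, which were 18% of all cycling cells of that library. The same receptor was carried by the largest clone of WT spleen, with 6 cycling cells of 39, or 15.4% (5.86 to 30.5). Its chains, shown because this clone alone sets the last value of WT liver above, joined TRAV10 to TRAJ56 and TRBV29 to TRBJ1-6, with these CDR3 sequences read from the contigs, from 5′ to 3′.
TRA CDR3: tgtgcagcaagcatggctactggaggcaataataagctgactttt
TRB CDR3: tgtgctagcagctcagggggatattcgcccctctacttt

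Without this clone WT liver had 7.43% (6.49 to 8.46) cycling cells and the G2/M set in 6.82% of cells. Without its own largest clone EomesTG liver had 6.78% (5.97 to 7.67) cycling cells and the G2/M set in 6.67%. Within the clone the S share of member UMIs in cycling cells was 28.7% in liver, near that of the cycling cells of the whole library. Cycling cells as a whole came from many clones in spleen and fewer in EomesTG liver: the 126, 61, 219 and 267 cycling cells with a clone call belonged to 120, 61, 160 and 84 clones. The same contrast held for all cells with a clone call, of which 96.7%, 97.7%, 82.0% and 28.5% were in clones of a single cell. Of the cycling cells with a clone call 89.7%, 88.5%, 61.6% and 16.9% were in such clones, a lower share in each library.

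**Figure D5:**
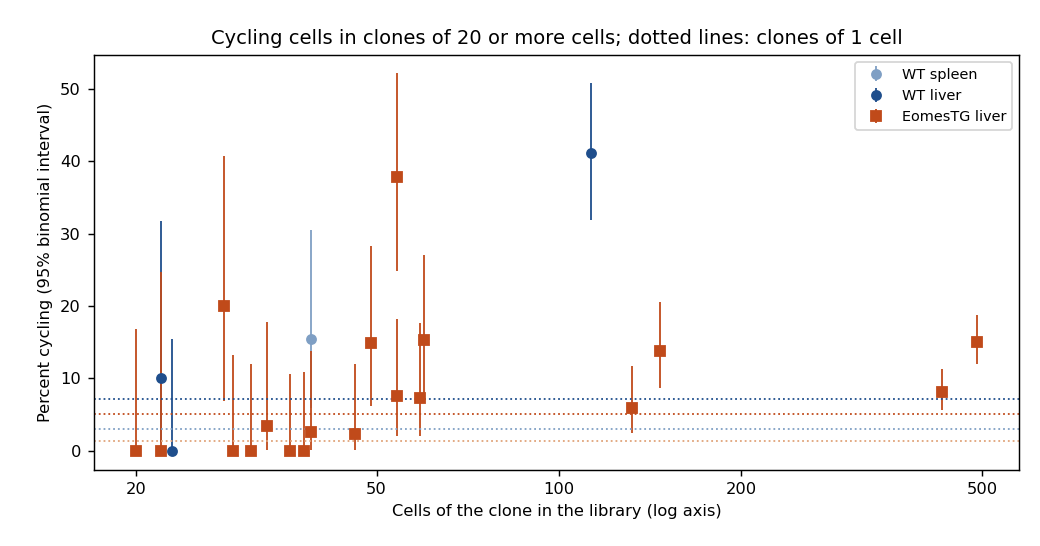
Percent of cycling cells in each clone of 20 or more cells against the number of its cells in the library (log axis), with 95% binomial intervals; dotted lines mark the share in clones of 1 cell of each library in its colour. The WT liver clone at 41.1% and one EomesTG liver clone at 37.7% stand above the rest, and 6 of 19 EomesTG liver clones lie at 0%.

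Pdcd1 marks cells that met antigen recently or for long, and in the spleens cells with its UMI were cycling more often than the others. In WT spleen 18% (9.36 to 30.0) of 61 cells with a Pdcd1 UMI were cycling, against 2.71% (2.28 to 3.20) of 5014 without. In EomesTG spleen the shares were 7.78% (3.18 to 15.4) of 90 and 1.14% (0.871 to 1.47) of 5262 cells. In WT liver they were 15.4% (9.06 to 23.8) of 104 and 8.47% (7.47 to 9.56) of 2822 cells. In EomesTG liver, where Pdcd1 was found in about as many cells as not, they were 9.14% (7.91 to 10.5) of 2002 and 6.30% (5.26 to 7.48) of 1920 cells. With 2 Pdcd1 UMIs required, 7.78% of such cells and 7.74% of all others were cycling, the others then including cells with 1 Pdcd1 UMI. Clone size moves with Pdcd1 in EomesTG liver, so the shares were taken within clone sizes as well. In clones of 1 cell they were 12.2% (6.01 to 21.3) of 82 cells with and 4.4% (3.09 to 6.07) of 795 without Pdcd1. In clones of 2 to 9 cells they were 4.52% (1.83 to 9.08) and 8.72% (4.96 to 14.0), in clones of 10 to 99 cells 9.58% (7.23 to 12.4) and 9.31% (5.70 to 14.2), and in clones of 100 or more cells 11.1% (9.03 to 13.4) and 12.6% (8.96 to 17.1). The intervals with and without Pdcd1 overlapped in each clone size of EomesTG liver. In the other libraries they lay apart in clones of 1 cell. WT spleen had 15.2% (5.11 to 31.9) of 33 such cells cycling with and 2.90% (2.38 to 3.49) of 3730 without Pdcd1. EomesTG spleen had 8.93% (2.96 to 19.6) of 56 and 1.27% (0.940 to 1.67) of 3864 cells. WT liver had 20.8% (10.5 to 35.0) of 48 and 6.75% (5.65 to 7.98) of 1853 cells.

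Both sets were detected more often with Pdcd1 in EomesTG liver, the S set in 49.7% (47.5 to 51.9) against 42.6% (40.4 to 44.9) and the G2/M set in 8.64% (7.45 to 9.96) against 6.61% (5.54 to 7.82), and the latter intervals overlap. Within clone sizes the S set did not differ beyond its intervals, at 37.8% with and 38.5% without Pdcd1 in clones of 1 cell, 43.9% and 50% in clones of 2 to 9, 50.1% and 51.0% in clones of 10 to 99, and 52.4% and 48.4% in clones of 100 or more cells. In WT liver the S set was in 52.9% (42.8 to 62.8) with and 40.4% (38.6 to 42.3) without Pdcd1, and in EomesTG spleen in 47.8% (37.1 to 58.6) and 34.6% (33.3 to 35.9). In WT spleen it was in 39.3% (27.1 to 52.7) and 35.5% (34.1 to 36.8), while the G2/M set was in 13.1% (5.84 to 24.2) and 3.17% (2.70 to 3.69). Among cycling cells of EomesTG liver, S members made up 38% of member UMIs in the 183 cells with Pdcd1 and 31.2% in the 121 without. In WT liver the shares were 46.7% in 16 and 29.9% in 239 cells. In the spleens the order was the reverse. WT spleen had 21.3% in 11 and 33.5% in 136 cells, and EomesTG spleen 26.3% in 7 and 33.2% in 60 cells. UMIs of 1 cell are not independent of each other, so these shares carry more error than their counts give.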

How the data were processed

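Droplet sequencing of 5′ RNA ends was done on sorted CD8 T cells in 4 expression libraries and 4 matched TCR libraries. The authors deposited filtered matrices of raw UMI counts per gene and cell, made with Cell Ranger on mm10, per the submitters' processing notes. The matrices come from Cell Ranger 3.1.0 and matrix format version 2, per the file headers; read filters are not given in the sources used here. Of 5415, 5774, 3327 and 4587 deposited barcodes (spleens first, then livers, each WT before EomesTG), 80, 48, 177 and 66 failed a minimum of 500 UMIs, a minimum of 300 genes or a mitochondrial share under 10%. A further 26, 11, 44 and 34 were left out because they had at least 5 UMIs of 29 markers of other cell types or fewer than 3 UMIs of CD8 T cell markers; 7 such markers that T cells express were not used, a choice made after the data were seen. No doublet caller was run, and 2 productive beta chains were found in 6.35%, 6.16%, 6.79% and 3.90% of cells.

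Counts were summed over the cells of a library and given per 1e+06 UMIs (CPM). Ratios have exact conditional binomial intervals, and a gene is called at 1.5-fold or more with the interval on that side, over genes with at least 50 UMIs over both libraries. With each clone counted once or each cell weighted equally, no interval was computed and genes were counted by the ratio alone. A count of 0 was set to a floor of 3 counts for a bound. For shares, cells were thinned to 2000 UMIs with seed 1, which left out 234, 363, 180 and 565 shallower cells. Clones are cells with the same productive alpha and beta CDR3 nucleotides, sized within a library.

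The members and the lists were chosen with earlier results of these data known. All 38 members are given with their values; of the other cell cycle lists, up to 4 genes per list and comparison were chosen by the interval bound farthest from equality, and a few of these are given. In cycling against other cells the listed naive, cytotoxic and inhibitory receptor genes could be named; Cdkn2a, Cdkn2c and Spdya were chosen there after their values were seen. One gene of the naive lists is not reported here, and both lists were used without it. Alternatives covered filters, scaling, clones, thinning and thresholds. The calls were tested on simulated counts. Computation was in Python 3.11.15 with pandas 2.3.3, scipy 1.17.1, numpy 2.4.6 and matplotlib 3.10.9.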

Additional observations from a re-analysis of the deposited data

Results flagged for a closer look

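In 4 members the whole interval of the EomesTG to WT ratio lay below equality in spleen and above it in liver; each rests on 1 library per group, and the difference was not tested. Over all 38 members the log2 ratio was above 0 for 0 in spleen and 13 in liver, where the median of all genes was 0.12. For Mcm6 the liver log2 ratio exceeded the spleen log2 ratio by 0.80, with −0.40 in spleen and 0.40 in liver. With each clone counted once the liver ratio of Mcm6 was −0.036. For Mcm4 the excess was 0.39, for Tk1 1.37 and for Cenpa 0.92; the liver ratios of Tk1 and Cenpa, 0.16 and 0.15, were close to the median of all genes. With each clone counted once the liver ratios of Tk1 and Cenpa were −0.45 and −0.28, both below equality as in spleen.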

How the results depend on the processing

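No called value changed sign. Of values within the 1.5-fold limit several did. In EomesTG against WT liver these included the summed S ratio with each cell weighted equally. With each clone counted once they included Mcm6, from 0.40 to −0.036. All 26 G2/M ratios of the livers were then below 0, the highest at −0.06, whereas 8 were above 0 over all cells. Between organs the lowest G2/M ratio was then −0.0089 in WT and −0.42 in EomesTG mice, against 0.42 and 0.049 over all cells. Of the values of single members under an alternative, 1128 moved by less than their counting interval and 234 by more; of the summary values 245 stayed and 101 moved, and these are given here spleens before livers and WT before EomesTG where there are 4. The cause of these moves was not tested, beyond what the alternatives change by construction.

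As summed log2 ratios, the S and G2/M members were at −0.49 and −0.95 in EomesTG against WT spleen, −0.056 and −0.13 in EomesTG against WT liver, 0.86 and 1.45 in WT liver against spleen and 1.29 and 2.28 in EomesTG liver against spleen. With each cell weighted equally or each clone counted once, members were counted by the ratio alone, without an interval. With each cell weighted equally, the S ratio was −0.27 in spleen. In EomesTG against WT liver the S and G2/M ratios were then 0.079 and −0.30 with 2 G2/M members lower. Between WT organs they were 0.63 and 1.40 with 6 S members higher, and between EomesTG organs 0.98 and 2.03 with 1 G2/M member lower. With each clone counted once, the S ratio was −0.24 in spleen. In EomesTG against WT liver the ratios were −0.16 and −0.64, with 2 S and 15 G2/M members lower. Between WT organs they were 0.52 and 1.04 with 4 S members higher, and between EomesTG organs 0.60 and 1.32 with 7 S members higher. By the same rule 4.95% of all genes were lower in EomesTG than in WT liver. Between organs 10.7% were higher in WT and 15.6% in EomesTG liver. As means over clones, the share with the G2/M set was then 6.47% in WT liver and 4.58% in EomesTG liver, and that with the S set 39.8% in EomesTG liver. Centred on the median of all genes, the ratios were −0.18 and −0.25 in EomesTG against WT liver with 1 S and 1 G2/M member lower, 0.80 and 1.40 between WT organs and 1.10 and 2.09 between EomesTG organs. Without the largest clone of each library, chosen after the data were seen, the G2/M ratio of the livers was −0.082, and the organ ratios were 0.76 and 1.23 in WT and 1.18 and 2.07 in EomesTG mice. Clones of 100 or more cells in EomesTG liver had 8.97% cycling cells without the largest of them. With barcodes of other cell types kept, the G2/M ratio between EomesTG organs was 2.33. At 2-fold or more, 3 S and 14 G2/M members were lower in EomesTG spleen, and 5 and 7 S members higher in WT and EomesTG liver than in spleen. The share of all genes at 2-fold was not computed.

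Shares of cells depend on depth and threshold. Thinned to 1000 UMIs, the S set was in 21.6%, 19.7%, 24.8% and 28.3% of cells, the G2/M set in 2.07%, 0.968%, 5.64% and 4.65%, and cycling cells were 1.84%, 0.774%, 6.03% and 4.81%. Thinned to 3000 UMIs, the sets were in 46.5%, 45.9%, 51.8% and 59.0% and in 4.17%, 2.13%, 10.1% and 10.3%. Without thinning they were in 62.3%, 59.3%, 67.2% and 64.1% and in 5.71%, 2.98%, 12.8% and 10.7%. With 2 UMIs required they were in 9.24%, 7.74%, 15.5% and 17.4% and in 1.52%, 0.579%, 4.24% and 3.37%. Cycling cells were 6.19%, 3.57%, 14.0% and 14.8% at 3 or more UMIs and 1.91%, 0.803%, 6.32% and 4.82% at 10 or more, so the order of the 2 livers turned at the lower threshold. The S share of member UMIs was 35.3%, 32.1%, 32.6% and 31.4% in cycling cells and 84.7%, 90.4%, 77.9% and 79.9% over the 2 sets. With 2 Pdcd1 UMIs required, 20% of such EomesTG spleen cells were cycling, and in EomesTG liver 7.78% of such cells and 7.74% of those with fewer. Without clones of 10 or more cells, 7.22% of WT liver cells without Pdcd1 were cycling, and 6.08% with and 4.66% without it in EomesTG liver. With 1 library per group, differences between mice or preparations cannot be told apart from those between genotypes or organs.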
